A study of Mus musculus with 74 samples.

Results

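The genes described here encode CD antigens, the cell-surface molecules of leukocytes that carry a cluster-of-differentiation number. A gene belonged to the set when its symbol in the platform annotation was Cd followed by a number and an optional letter suffix. Cd28, Cd5, Cd6, Cd69, Cd24a, Cd3d, Cd3e, Cd3g, Cd247, Cd74 and Cd53 were left out, and the first probe in file order stood for a gene. The rule found 67 genes on 71 probes, of 13409 distinct gene symbols on the array. No measured value entered the rule. The set was grouped by the role of its members into 13 T cell coreceptors and stimulatory receptors, 9 adhesion molecules and mucins, 6 tetraspanins, 6 B7 and TNF family molecules of antigen-presenting cells, 5 B cell receptors, 2 lipid-presenting molecules, 19 myeloid, dendritic and scavenger receptors, 4 complement regulators and 3 intracellular proteins named after a CD antigen that they bind (Cd2ap, Cd2bp2 and Cd3eap). The group named first also holds the ligand genes Cd40lg, Cd48 and Cd70. Whether each of its members stimulates T cells was not tested, so its counts are not counts of stimulatory receptors alone.

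CD antigens set how a T cell touches and reads its neighbours. The coreceptors CD4 and CD8 bind MHC molecules beside the T cell receptor, pairs such as CD2 and CD48, CD27 and CD70, CD40 and CD40 ligand, or CD200 and its receptor carry signals from cell to cell, and PD-L1, the product of Cd274, restrains T cells through PD-1. In the thymus many of these genes change as cortical thymocytes that carry both coreceptors are signalled through their T cell receptor and become mature cells with a single coreceptor or die by negative selection. HDAC7, a histone deacetylase of class IIa, is brought by MEF2 transcription factors to their target genes, among them Nr4a1, which encodes the orphan nuclear receptor Nur77.

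All 74 arrays were 2-colour arrays of mouse RNA, in 11 groups. DO11.10 is a T cell hybridoma, a fused and therefore immortal T cell line, and the RNA of untreated DO11.10 cells was the partner on every hybridoma array. The cells carried the empty retrovirus MSCV in a set of 12 arrays (empty virus A) and in another of 4 arrays (empty virus B), HDAC7-VP16 (10 arrays), MEF2D-VP16 (4 arrays) or Nur77 in MSCV (4 arrays). VP16 is a viral activation domain. Cells with the empty virus, or with MSCV carrying the construct named HDAC7 DP, were also treated with PMA and ionomycin for 2.5 h (8 arrays each), a pair of drugs that mimics a T cell receptor signal. Thymocytes, unsorted, came from DO11.10 mice, which carry a transgenic T cell receptor. They were set against thymocytes of mhc -/- mice (6 arrays), and thymocytes taken 3 h, 6 h or 12 h after injection of antigenic peptide were set against those of uninjected DO11.10 mice (6 arrays for each time). The sources used here do not give the meaning of DP, the strain and age of the mice, which MHC genes were deleted, or how many cultures or animals gave the RNA.

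Values are log2 ratios of the named RNA over its partner, so that 1 is a doubling, and each array was centred on its median. A gene is called when limma's moderated test gave a Benjamini-Hochberg adjusted p under 0.05 over all 16463 probes. Log base and direction of the ratios are taken from the data and are not stated by the depositors. Nr4a1 lay between 3.18 and 6.12 on the 4 Nur77 arrays, and B2m, the light chain of MHC class I, between 2.97 and 3.70 on the 6 arrays of DO11.10 over mhc -/- thymocytes. Hdac7 split the HDAC7 DP arrays by slide series, from -0.01 to 0.46 on the 4 arrays of series 14 and from 3.41 to 4.81 on the 4 arrays of series 15, and the probe for Mef2d stayed between -0.25 and 0.20 on the MEF2D-VP16 arrays. A probe outside the expressed construct would check nothing, and its position was not known here. Arrays of opposite dye orientation had a median correlation over all probes of -0.40 in empty virus A, -0.48 in HDAC7-VP16 and -0.24 in empty virus B, and between 0.15 and 0.85 in the other groups. The direction or the dye orientation of empty virus A replicates 3 and 9 is unsettled, since the lowest correlation among arrays of one orientation there was -0.58. On these replicates Cd81 was at -2.72 and 1.56, opposite in sign to the other arrays of their orientation. Cd36 (0.22 and 0.24) and Cd70 (-0.12 and -0.32) kept the sign of all other arrays of the group. Only the signs were turned as an alternative, and an exchange of the dyes was not tested. The label fields of HDAC7-VP16 replicate 1 disagree on its virus. Ratios give no absolute level, so whether any marker is present or absent in these cells was not measured. Nothing in the labels ties the arrays of a group to separate cultures or animals, so the p-values rest on a spread that may be technical.

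**Figure D1:**
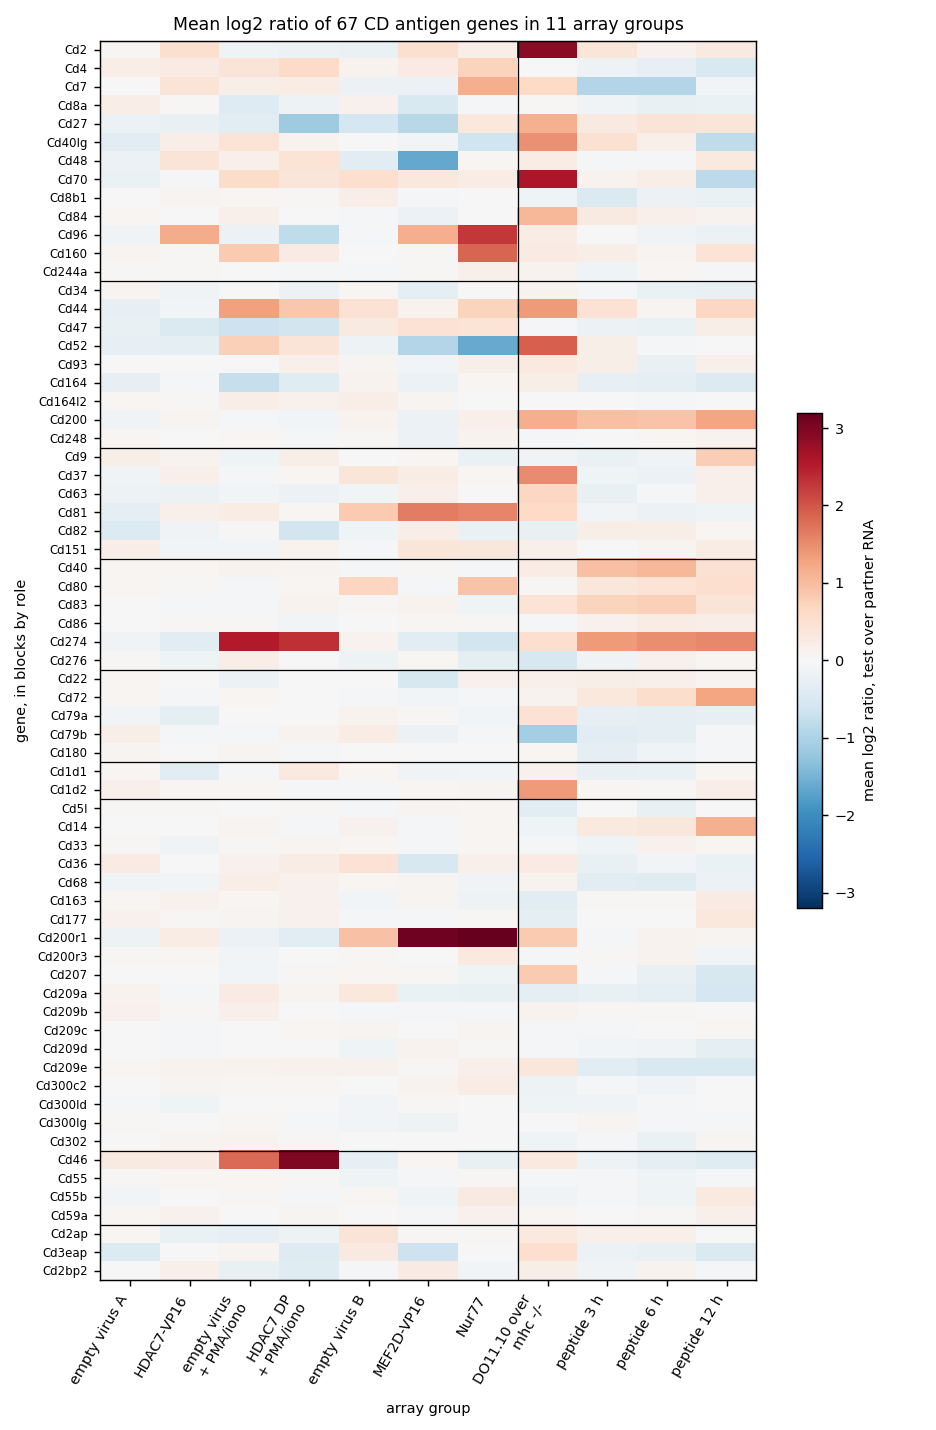
Mean log2 ratio (colour, test over partner RNA) of the 67 genes (rows, in blocks by role as listed in the text) in the 11 array groups (columns; hybridoma groups left of the vertical line, thymocytes right of it). The deepest red in the hybridoma marks Cd200r1 with MEF2D-VP16 and Nur77 and Cd46 with HDAC7 DP under stimulation. Cd274 in both stimulated groups and Cd96 with Nur77 come next. In the thymocytes the deepest red marks Cd2 and Cd70 in DO11.10 over mhc -/- cells.

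The coreceptor genes stayed near their partner RNA in DO11.10 over mhc -/- thymocytes. In the hybridoma the mean of Cd4 lay above untreated cells in every group. Against untreated cells Cd4 was called with Nur77 (0.70, adjusted p = 0.00833, limma) and in both stimulated groups. These were empty virus (0.41, adjusted p = 0.0125) and HDAC7 DP (0.60, adjusted p = 0.000485). It was not called with HDAC7-VP16 (0.26), MEF2D-VP16 (0.25) or either unstimulated empty virus. Cd4 encodes the coreceptor for MHC class II, and Cd8a and Cd8b1 encode both chains of the coreceptor for class I. In DO11.10 over mhc -/- thymocytes the log2 ratio of Cd4 was -0.02 (95% interval -0.13 to 0.08, 6 arrays), that of Cd8a 0.03 (-0.10 to 0.17) and that of Cd8b1 -0.14 (-0.30 to 0.03). None of the 3 was called there. In the hybridoma, Cd4 rose with Nur77 over empty virus B by 0.59 (SE 0.14, adjusted p = 0.03, limma). Its values were 0.36, 0.69, 1.05 and 0.70 on the Nur77 arrays and 0.12, 0.18, 0.03 and 0.11 on the empty virus B arrays, without overlap, but the call held in 3 of the 8 fits that left out 1 array. Cd8a fell with MEF2D-VP16 by 0.63 on the log2 scale (SE 0.11, adjusted p = 0.00597, limma). The 4 MEF2D-VP16 arrays gave -0.64, -0.46, -0.58 and -0.32, all below the 0, 0.09, 0.09 and 0.33 of empty virus B. After peptide, Cd8b1 at 3 h was at -0.47 (95% interval -0.83 to -0.10). Cd4 at 12 h was at -0.49 (-0.75 to -0.23). Neither was called over all 6 arrays in the fit of its own group. With all groups in one fit both were called (adjusted p = 0.00899 for Cd8b1 and 0.000129 for Cd4, limma). With arrays scaled Cd4 at 12 h was also called (-0.47, adjusted p = 0.0404). Cd4 at 12 h was called without replicate 1 (-0.39, adjusted p = 0.0418, limma). Cd8a was at -0.62 after PMA and ionomycin against empty virus A (adjusted p = 0.0628, limma) and was not called. It was called with the signs of replicates 3 and 9 turned (-0.63, adjusted p = 0.0489), and with all groups in one fit (-0.62, adjusted p = 0.00422). Against all 16 empty-virus arrays it was called as well (-0.6, adjusted p = 0.031). It was not called on series 14 alone (-0.88), on series 15 alone (-0.35), with slides of one number averaged (-0.62) or against untreated cells (-0.42). Cd4 at 6 h was -1.16 and -0.71 on the pair of slides from series 13 and from 0 to 0.24 on slides 9 to 12, which do not overlap.

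**Figure D2:**
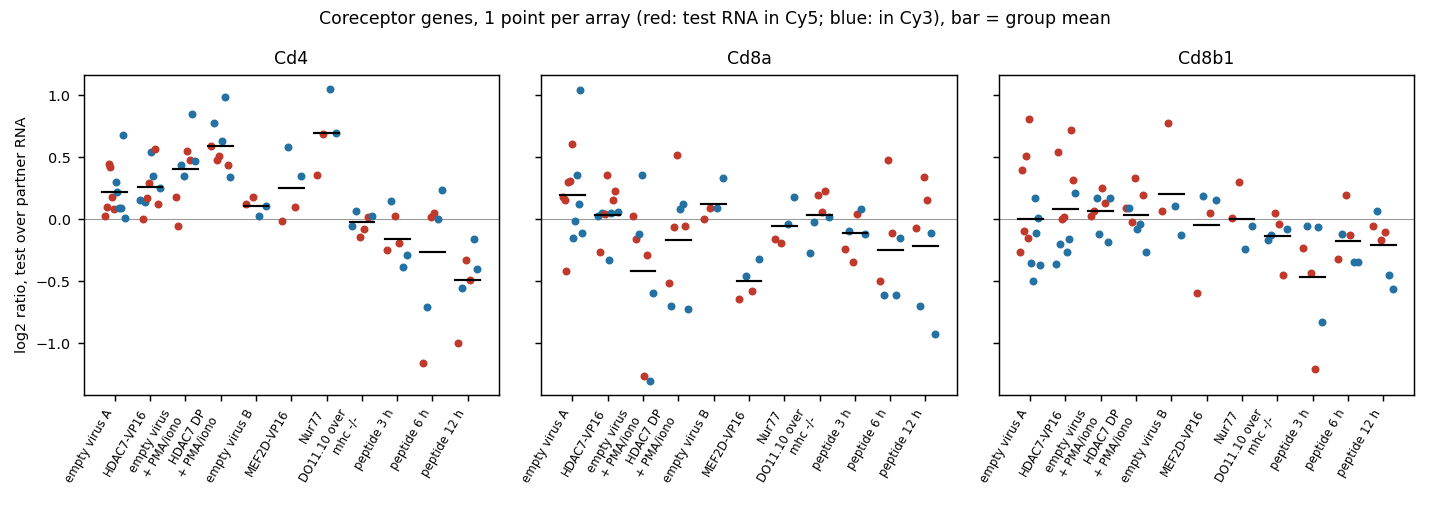
Log2 ratio (vertical axis) of Cd4, Cd8a and Cd8b1 on each of the 74 arrays (points) by group (horizontal axis), red where the test RNA was in Cy5 and blue where it was in Cy3, with the group mean as a bar. Group means run from -0.49 to 0.70 for Cd4, highest on the Nur77 arrays and lowest 12 h after peptide, from -0.50 to 0.20 for Cd8a and from -0.47 to 0.21 for Cd8b1.

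Cd96 was called in all 4 hybridoma comparisons of a construct with its empty virus. It encodes an immunoglobulin-family receptor of T and NK cells that binds the nectin-family molecule CD155. Its 250 bases before the transcription start annotated by RefSeq (mouse build GRCm38.p6, chr16:46120249-46120498, minus strand) are shown with those of Cd274 (chr19:29367188-29367437, plus strand), since these are the members with the clearest response to the constructs and to the drugs. Capitals mark GGAAA or its reverse complement, the core bound by NFAT, the calcium-driven factor of T cell activation.
Cd96: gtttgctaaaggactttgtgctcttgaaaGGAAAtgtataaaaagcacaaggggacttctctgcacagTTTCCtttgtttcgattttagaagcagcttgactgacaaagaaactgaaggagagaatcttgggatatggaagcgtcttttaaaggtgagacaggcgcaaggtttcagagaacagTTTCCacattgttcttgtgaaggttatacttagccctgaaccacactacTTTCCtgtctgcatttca
Cd274: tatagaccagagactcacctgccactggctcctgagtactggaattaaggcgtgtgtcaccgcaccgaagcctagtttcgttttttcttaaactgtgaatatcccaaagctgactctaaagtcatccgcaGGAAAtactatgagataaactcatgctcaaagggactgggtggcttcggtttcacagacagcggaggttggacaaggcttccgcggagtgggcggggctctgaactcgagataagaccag

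Promoter windows, from 250 bases before to 50 bases after the start, were found for 49 of the 67 members, on 56 windows of 32851 in the RefSeq table. GGAAA on either strand is common and occurred in 61.3% of all windows and in 34 of the 56. The element AAAGGTCA bound by Nur77 occurred in 1.51% of all windows and in 0 of the 56. The MEF2 consensus occurred in 3.19% of all windows and, among members, in that of Cd22 alone. The AP-1 site TGACTCA or TGAGTCA occurred in 5.2% of all windows and in those of Cd207, Cd244a, Cd68 and Cd84. The Cd96 and Cd274 windows held none of these last 3 motifs, which says only that those letters are not in that window.

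HDAC7-VP16 raised 3 genes of the group of T cell coreceptors and stimulatory receptors. Of the 67 genes 4 were called against empty virus A, where 2.72% of all probes were called, and the higher ones were Cd96, Cd48 and Cd2. Cd96 ran from 0.51 through a median of 1.25 to 1.77 on the 10 HDAC7-VP16 arrays and from -0.54 through -0.11 to 0.34 on the 12 arrays of empty virus A. The groups did not overlap, and Cd96 rose 2.45-fold (log2 change 1.29, SE 0.13, adjusted p = 1.53e-06, limma). Its lowest values, 0.55 and 0.51, came from slides 11 and 12 of series 14, where Hdac7 itself was at -0.15 and -0.02. Series 14 alone gave 1.08 for Cd96, which was not called, and series 15 alone 1.43. Without slides 11 and 12 of series 14 the change of Cd96 was 1.46. That fit was chosen after the data were seen, and leaving out the lowest values had to raise the change. Whether Cd96 follows the level of Hdac7 was not tested.

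Cd48 and Cd2 encode an adhesion pair of the immunoglobulin family, CD2 on T cells and its mouse ligand CD48 on most leukocytes. Cd48 rose by 0.58 (SE 0.15, adjusted p = 0.0307, limma) and Cd2 by 0.47 (SE 0.12, adjusted p = 0.0274), with overlap between the arrays of both groups. Cd48 ran from -0.40 through 0.54 to 1.21 with HDAC7-VP16 and from -0.61 through -0.14 to 0.32 with the empty virus. The call of Cd48 was lost with the signs of empty virus A replicates 3 and 9 turned, and that of Cd2 without HDAC7-VP16 replicate 1. With slides of one number averaged, Cd48 (adjusted p = 0.147), Cd2 (0.134) and Cd36 (0.0984) all lost their calls, and Cd96 kept its own (0.000249). Cd36, a scavenger receptor of myeloid cells, was 0.24 lower (adjusted p = 0.0284), but its mean was 0.02 over untreated cells and 0.27 in empty virus A, and it lost its call with the signs turned.

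MEF2D-VP16 and Nur77 raised Cd200r1 and Cd96 most. Both were set against the same 4 arrays of empty virus B, so these comparisons share their controls. With MEF2D-VP16, 10 of the 67 genes were called, 4 higher and 6 lower, at a background of 12.6% of all probes. With Nur77, 8 were called, 6 higher and 2 lower, at a background of 6.91%.

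Cd200r1 encodes the inhibitory receptor for CD200, best known from myeloid cells and also found on T cells. Its ratios were 3.26, 3.41, 2.52 and 3.23 with MEF2D-VP16, 3.15, 2.50, 4.05 and 3.12 with Nur77, and 0.59, 0.68, 1.45 and 1.05 with empty virus B. Every array with a factor lay above every empty virus B array. Cd200r1 rose 4.49-fold with MEF2D-VP16 (log2 change 2.17, SE 0.17, adjusted p = 9.16e-05, limma) and 4.81-fold with Nur77 (2.27, SE 0.21, adjusted p = 9.31e-05). Empty virus B had itself raised the gene by 0.94 over untreated cells (SE 0.09, adjusted p = 0.00204), while empty virus A had it between -0.37 and 0.15. With HDAC7-VP16 the gene ran from -0.52 to 0.73 and was not called. Its ligand gene Cd200 stayed between -0.46 and 0.34 on the arrays of MEF2D-VP16, Nur77 and empty virus B.

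Cd96 was at 1.36, 1.39, 0.83 and 1.05 with MEF2D-VP16, at 2.23, 2.04, 2.64 and 2.07 with Nur77, and at -0.11, 0, -0.18 and 0.03 with empty virus B. The 3 groups did not overlap. It rose 2.33-fold with MEF2D-VP16 (log2 change 1.22, SE 0.15, adjusted p = 0.000924, limma) and 4.96-fold with Nur77 (2.31, SE 0.14, adjusted p = 5.25e-06). Set directly against each other, Nur77 arrays exceeded MEF2D-VP16 arrays by 1.09 (SE 0.18, adjusted p = 0.00343, limma), a test added after the data were seen.

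Where 3.62% of all probes were called higher, Nur77 raised 5 of the 13 T cell coreceptor and stimulatory receptor genes over empty virus B. Besides Cd96 and Cd4 these were Cd160, Cd7 and Cd27. Cd160 encodes a receptor of cytotoxic and NK cells that binds HVEM and class I molecules. Its Nur77 values were 2.41, 1.62, 3.00 and 0.38 and its empty virus B values 0.02, 0.34, -0.16 and -0.23, a rise of 3.63-fold (log2 change 1.86, SE 0.43, adjusted p = 0.0274, limma) with the widest spread among the genes that Nur77 raised. That call held in 3 of the 8 fits that left out 1 array. Cd7, an early T lineage receptor, rose by 1.34 (SE 0.25, adjusted p = 0.00888), from values of 1.33, 1.44, 1.05 and 0.81 with Nur77. Empty virus B replicate 2 lay at -1.0 against 0.05 to 0.11 on the other arrays of its group. Cd27, a costimulatory TNF receptor lost by activated T cells late in differentiation, was at 0.19, 0.05, 0.67 and 0.46 with Nur77 and at -0.52, -0.52, -0.70 and -0.54 with empty virus B. The difference was 0.91 (SE 0.14, adjusted p = 0.00218), and against untreated cells Nur77 gave 0.34, which was not called (adjusted p = 0.0502).

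Cd52 and Cd274 fell with both factors. Cd52 encodes a short glycosylated surface peptide of lymphocytes. Its values were -1.11, -1.20, -0.68 and -0.81 with MEF2D-VP16 and -1.42, -1.60, -1.57 and -1.86 with Nur77, below -0.35, -0.11, -0.27 and 0.04 with empty virus B. Cd52 fell by 0.78 on the log2 scale with MEF2D-VP16 (SE 0.16, adjusted p = 0.00979, limma) and by 1.44 with Nur77 (SE 0.14, adjusted p = 9.78e-05). For Cd274 the falls were 0.48 with MEF2D-VP16 (SE 0.13, adjusted p = 0.0405) and 0.71 with Nur77 (SE 0.15, adjusted p = 0.0145). Both calls of Cd274 were lost when all 16 empty-virus arrays served as the control, and the first held in 2 of the 8 fits that left out 1 array. Pdcd1, which encodes PD-1, the receptor for the product of Cd274, rose with both factors (2.59 with MEF2D-VP16 and 2.69 with Nur77).

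The other MEF2D-VP16 calls were smaller. Cd2 rose by 0.73 (adjusted p = 0.00374, limma) from values of 0.59, 0.52, 0.53 and 0.43, and the tetraspanin gene Cd151 by 0.45 (adjusted p = 0.0481). Cd48, the ligand gene of Cd2, fell by 1.28 on the log2 scale (SE 0.34, adjusted p = 0.0381), with values of -2.52, -1.93, -0.54 and -1.53 against -0.25, -0.11, -0.62 and -0.42, so that a single MEF2D-VP16 array overlapped the controls. The Cd48 call held in 2 of the 8 fits that left out 1 array, and the Cd151 call in 1. Cd3eap, now known as an RNA polymerase I subunit, fell by 0.94, and Cd80, a B7 ligand of CD28, by 0.71. Over untreated cells Cd80 was at 0.44 to 0.98 with empty virus B and at -0.26 to 0.14 with MEF2D-VP16. With Nur77 it averaged 0.90 (adjusted p = 0.00873, limma). Whether the control or MEF2D-VP16 made the Cd80 difference was not tested. Cd47, which carries the signal read by SIRP-alpha, showed a disagreement between its probes. The probe used here gave 0.17 with MEF2D-VP16 and 0.15 with Nur77, and the other probes gave 1.22 and 0.90 with MEF2D-VP16 and 0.86 and 0.52 with Nur77, all 4 called.

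Nur77 and MEF2D-VP16 differed from each other in 11 of the 67 genes, where 13% of all probes were called, 10 of them higher with Nur77. Besides Cd96 these were Cd48 (1.69), Cd160 (1.82), Cd7 (1.35), Cd27 (1.22), Cd80 (0.93), Cd36 (0.68), Cd22 (0.64), Cd3eap (0.64) and Cd8a (0.44), where each value is the log2 difference of Nur77 over MEF2D-VP16. Cd52 was lower with Nur77, by 0.66 on the log2 scale (SE 0.15, adjusted p = 0.0186, limma). Cd27 was at -1.24, -1.10, -0.64 and -0.53 with MEF2D-VP16, and all 4 Nur77 arrays lay above 0. Against untreated cells it was lower with MEF2D-VP16 (-0.88, adjusted p = 0.00616), and against empty virus B it was not called.

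**Figure D3:**
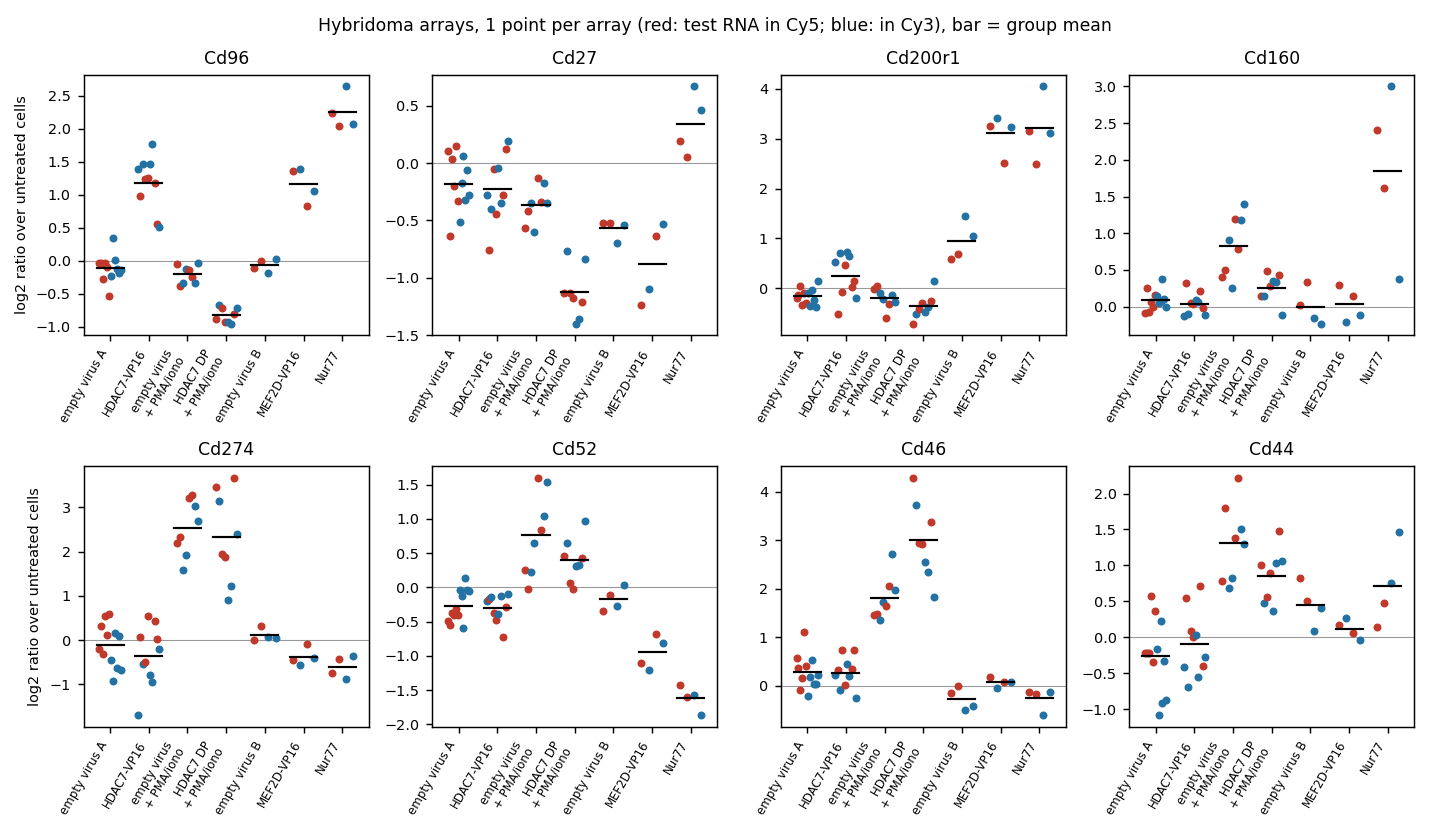
Log2 ratio over untreated cells (vertical axis) of 8 genes on each hybridoma array (points, red with the test RNA in Cy5 and blue in Cy3) by group (horizontal axis), with group means as bars. Cd96 lies above both empty-virus sets with HDAC7-VP16, MEF2D-VP16 and Nur77 and lowest with HDAC7 DP under stimulation, Cd200r1 is high with MEF2D-VP16 and Nur77, and Cd274, Cd46 and Cd44 are high after PMA and ionomycin.

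PMA and ionomycin raised 7 of the 67 genes in cells with the empty virus and lowered none at this threshold. Over all probes 12.5% were called at the same adjusted threshold, 6.07% higher and 6.43% lower. At an unadjusted p under 0.05, 14 genes differed. The share of all probes at that unadjusted level is not given here, so this count cannot be set against a background. Cd274 showed the largest rise. It ran from 1.58 through a median of 2.52 to 3.27 on the 8 stimulated arrays and from -0.93 through -0.05 to 0.58 on the 12 arrays of empty virus A, without overlap. The rise was 6.25-fold (log2 change 2.64, SE 0.21, adjusted p = 3.49e-08, limma), and it was 2.60 on series 14 and 2.69 on series 15. The stimulated slides fell into pairs: slides 13 and 14 averaged 2.01 (SD 0.33, n = 4) and slides 15 and 16 averaged 3.05 (SD 0.25, n = 4). Pdcd1 also rose, by 2.95 (adjusted p = 9.36e-10).

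Cd46 and Cd44 followed. Cd46 encodes a membrane cofactor that inactivates complement, and in mice it is known mainly from the testis. It ran from 1.35 through 1.68 to 2.72 after stimulation and from -0.22 through 0.21 to 1.10 before, and rose 2.87-fold (log2 change 1.52, SE 0.17, adjusted p = 4.06e-06, limma). Cd44, the hyaluronan receptor of activated and memory T cells, rose 2.98-fold (1.58, SE 0.20, adjusted p = 1.39e-05). It ran from 0.68 through 1.34 to 2.22, above the highest empty virus A array at 0.58. Cd70, the ligand gene of Cd27, rose by 0.81 (SE 0.10, adjusted p = 1.59e-05), with 0.15 as the lowest stimulated value and -0.01 as the highest unstimulated one. Its slide pairs ran the other way from those of Cd274, with 0.87 on slides 13 and 14 and 0.30 on slides 15 and 16. Cd52 rose by 1.03 (adjusted p = 0.000433) and Cd160 by 0.74 (adjusted p = 0.000313), both with overlap. Cd3eap differed by 0.53 (adjusted p = 0.0378), with a mean over untreated cells of 0.08 when stimulated and of -0.45 in empty virus A. Its call was lost with the signs of replicates 3 and 9 turned.

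Against untreated cells in place of empty virus A, 12 members were called in the stimulated empty-virus cells, at a background of 16.1%. The additional ones were Cd4 (0.41), Cd40lg (0.44), Cd27 (-0.37), Cd164 (-0.74), Cd2bp2 (-0.23) and Cd96 (-0.20), and Cd3eap was not among them. Cd164 encodes a mucin-like adhesion molecule. By role, 2 of the 13 T cell coreceptor and stimulatory receptor genes rose against empty virus A, where 6.07% of all probes were called higher. So did 2 of 9 adhesion, 1 of 6 B7 and TNF family, 1 of 4 complement and 1 of 3 intracellular genes. None of the tetraspanin, B cell, lipid-presenting or myeloid genes was called. The median log2 change of the 13 T cell coreceptor and stimulatory receptor genes was 0.11, against -0.01 over all probes.

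HDAC7 DP lowered Cd27 and Cd96 under stimulation. These were the 2 of 67 genes called against stimulated empty-virus cells, where 1.65% of all probes were called. Cd27 ran from -1.40 through -1.16 to -0.77 on the 8 HDAC7 DP arrays and from -0.60 through -0.35 to -0.13 on the 8 stimulated empty-virus arrays. Without overlap, it fell 1.7-fold (log2 change -0.76, SE 0.10, adjusted p = 0.000534, limma). Cd96 ran from -0.95 through -0.84 to -0.67 with HDAC7 DP and from -0.38 through -0.19 to -0.04 with the empty virus, also without overlap, and fell 1.54-fold (log2 change -0.62, SE 0.07, adjusted p = 0.000188). Both series of slides gave values of like size, -0.80 and -0.72 for Cd27 and -0.59 and -0.65 for Cd96, with neither gene called within one series. Cd96 means with HDAC7 DP were -0.80 on series 14, where Hdac7 stood near 0, and -0.85 on series 15, where Hdac7 averaged 4.00. Averaged over pairs of neighbouring slides, which leaves 2 values a group, the changes kept their size and 0 of 67 genes were called, with 5 at an unadjusted p under 0.05.

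The genes that the drugs raised were not called between HDAC7 DP and empty-virus cells. Cd46 was higher with HDAC7 DP by 1.19 (SE 0.30, adjusted p = 0.0534), from 1.82 through 2.93 to 4.29, and Cd160 was lower by 0.57 on the log2 scale (SE 0.16, adjusted p = 0.0905), from -0.11 through 0.31 to 0.49. Cd274 differed by -0.20 (SE 0.37), with slides 17 and 18 at 3.17 and slides 19 and 20 at 1.49, so that the slide pairs of one group differed by more than the groups. Cd44 differed by -0.45 (SE 0.20), Cd52 by -0.37 (SE 0.22) and Cd70 by -0.20 (SE 0.14), none of them called. Against untreated cells, 12 genes were called in HDAC7 DP cells, at a background of 19.6%. Cd274 (2.33), Cd46 (2.99), Cd44 (0.86), Cd70 (0.38), Cd52 (0.40), Cd160 (0.26) and Cd4 (0.60) were higher, and Cd27 (-1.13), Cd96 (-0.82), Cd200r1 (-0.36), Cd2bp2 (-0.38) and Cd34 (-0.18) were lower. Pdcd1 fell with HDAC7 DP by 2.34 on the log2 scale (adjusted p = 0.000118, limma).

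The empty viruses themselves also moved members. Empty virus A changed 3 of 67 genes against untreated cells, at a background of 1.97%: Cd36 by 0.27, Cd52 by -0.27 and Cd70 by -0.22. None of these held with the signs of replicates 3 and 9 turned. Empty virus B changed 10 genes, at a background of 5.72%, with Cd200r1 (0.94), Cd81 (0.85) and Cd80 (0.69) highest and Cd27 (-0.57) and Cd48 (-0.35) lowest. Several of these split by dye, such as the tetraspanin gene Cd81 at 1.76 and 1.49 with the test RNA in Cy5 and at 0.16 and -0.01 in Cy3, and without the dye term 0 of the 10 were called.

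DO11.10 thymocytes differed from mhc -/- thymocytes in 34 of the 67 genes. Over all probes 36.3% were called, 20.5% higher and 15.8% lower, and among the members 28 were higher in DO11.10 cells and 6 lower. The members' median log2 ratio was 0.12, against -0.01 over all probes. Mice without MHC molecules lack positive selection, so that their thymus holds few mature single-coreceptor cells. In unsorted thymocytes fewer cells of a type and less RNA per cell cannot be told apart. Genes of mature single-coreceptor thymocytes moved as well, 5 of the 7 measured higher (Gimap4 by 3.21 and Itgb7 by 2.15 most) and 1 lower. Of 7 measured genes of the double-coreceptor stage, 5 were lower and 1 higher, with ratios from -1.33 to 2.18.

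Of 13 T cell coreceptor and stimulatory receptor genes 8 were called, all of them higher, where 20.5% of all probes were called higher. The median log2 ratio over the 13 was 0.26. Cd2 was at 3.07, 3.06, 2.97, 2.82, 2.65 and 2.79 on the 6 arrays, a 7.44-fold rise (log2 ratio 2.90, SE 0.06, adjusted p = 5.21e-07, limma). Cd70 was 6.02-fold higher (2.59, SE 0.13, adjusted p = 6.77e-06), from 2.04 to 3.02, and its receptor gene Cd27 2.22-fold (1.15, SE 0.10), from 0.76 to 1.62. Cd40lg, the CD40 ligand of helper T cells, rose by 1.47 (SE 0.17), from 0.68 to 2.02, and Cd84, a homotypic receptor of the SLAM family, by 1.06 (SE 0.09). Cd7 (0.63), Cd160 (0.26) and Cd96 (0.23) rose less. Cd48, the partner of Cd2, was at 0.23 and was not called (adjusted p = 0.0581).

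Of 9 adhesion genes 5 rose and none fell, where 20.5% of all probes were called higher. Cd52 was at 2.21, 2.44, 2.01, 1.57, 1.66 and 1.61, a 3.78-fold rise (log2 ratio 1.92, SE 0.11, adjusted p = 1.37e-05, limma). Cd44 rose 2.57-fold (1.36, SE 0.08), from 1.07 to 1.61, and Cd200 2.24-fold (1.16, SE 0.07), from 0.76 to 1.47. The receptor gene Cd200r1 also rose, by 0.85 (SE 0.07). Cd93 (0.30) and Cd164 (0.18) made up the 5. Among tetraspanins, which organise other membrane proteins into microdomains, Cd37 rose by 1.51 (SE 0.07, adjusted p = 4.08e-06) and its second probe by 1.83, Cd63 by 0.65 and Cd81 by 0.64. Of both lipid-presenting genes, Cd1d2 rose by 1.36 (SE 0.08), from 0.89 to 1.68, and Cd1d1 was at 0.14 and was not called. These paralogs are close in sequence, and cross-hybridisation between their probes was not tested.

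B cell and myeloid genes went both ways, where 20.5% of all probes were called higher and 15.8% lower. CD79A and CD79B are the signalling chains of the B cell receptor. Cd79a was higher by 0.45 (SE 0.05, adjusted p = 0.000322) and Cd79b lower by 1.08 on the log2 scale (SE 0.06, adjusted p = 1.36e-05, limma), with Cd79b at -0.94, -0.87, -1.07, -1.24, -1.12 and -1.27. Of 9 measured B cell markers outside the set, 3 were higher and 2 lower, from -0.27 to 3.29, the highest being Blk, a kinase gene. Among the 19 myeloid and dendritic genes 4 rose (Cd200r1, Cd207 by 0.85, Cd209e by 0.35 and Cd36 by 0.27) and 4 fell (Cd163 by 0.35, Cd5l by 0.33, Cd177 by 0.30 and Cd300c2 by 0.17). The call of Cd300c2 held in 1 of the 6 fits that left out 1 array. Of 9 macrophage and granulocyte markers outside the set, 2 were higher and 4 lower, and of 5 dendritic markers 3 were higher. These 3 were the class II genes H2-Aa, H2-Ab1 and H2-Eb1, at 1.96 to 2.42, and the other 2 were not called. As the partner mice were mhc -/- and the deleted genes are not known here, these 3 cannot serve as dendritic markers on these arrays. Of 7 thymic epithelium markers 4 were higher and 2 lower (median 0.68), of 8 endothelium and fibroblast markers 3 were higher, up to 2.39, and the 1 measured erythroid marker was higher (2.04). The part of other cell types in these values was not tested. Of the B7 and TNF family, Cd274 (0.54), Cd83 (0.44) and Cd40 (0.23) rose, Cd276 fell by 0.52, and Cd80 (0.04) and Cd86 (-0.05) were not called. The complement gene Cd46 (0.30) and the intracellular partners Cd3eap (0.53) and Cd2ap (0.30) also rose.

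**Figure D4:**
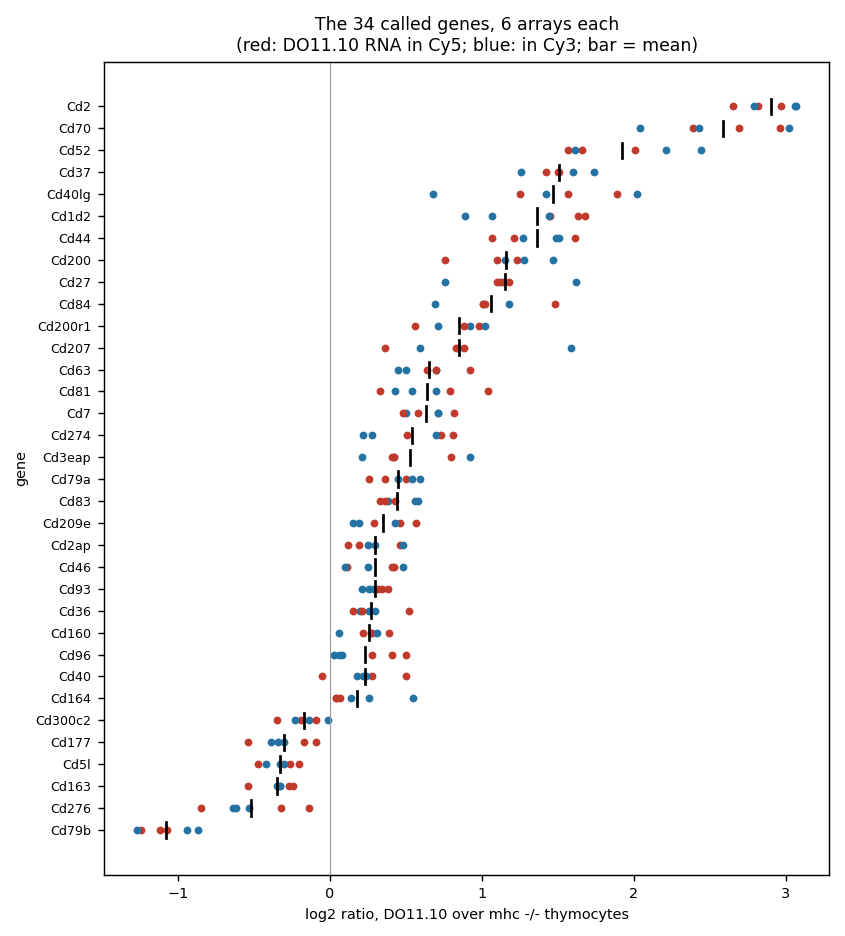
Log2 ratio of DO11.10 over mhc -/- thymocytes (horizontal axis) for the 34 called genes (vertical axis, ordered by mean), 1 point per array, red with DO11.10 RNA in Cy5 and blue in Cy3, with the mean as a bar. Cd2, Cd70 and Cd52 stand farthest to the right and Cd79b farthest to the left, and for most genes all 6 arrays lie on one side of 0.

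Antigenic peptide raised Cd274 and Cd200 at all 3 times. At 3 h 6 of 67 genes were called (background 2.71%), at 6 h 11 (background 4.57%) and at 12 h 6 (background 3.38%). Cd274 was at 1.66, 0.38, 1.34, 1.54, 1.66 and 1.61 at 3 h, at 1.41 to 1.56 on all 6 arrays at 6 h, and at 2.54, 1.10, 1.40, 1.37, 1.61 and 1.17 at 12 h. The fitted ratios were 1.36 (SE 0.17, adjusted p = 0.00951, limma), 1.49 (SE 0.06, adjusted p = 5.4e-06) and 1.53 (SE 0.17, adjusted p = 0.0126). A single array stood apart at 3 h and another at 12 h, and the calls at these times held in 3 of the 6 fits that left out 1 array. Cd200, an inhibitory ligand of the immunoglobulin family, was between 0.64 and 1.71 on all 18 arrays, with means of 0.95, 0.92 and 1.27 in order of time. It was called in all fits that left out 1 array. Cd200r1 stayed between -0.42 and 0.58 and was not called.

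Cd40 and Cd83 rose early. CD40 is the TNF-family receptor of B cells, dendritic cells and thymic epithelium, and CD83 is a marker of mature dendritic cells that thymic epithelium also carries. Cd40 rose by 0.96 at 3 h (SE 0.15, adjusted p = 0.0244, limma) and by 1.05 at 6 h (SE 0.14, adjusted p = 0.00529). The 3 h call held in 3 of the 6 fits that left out 1 array. At 12 h it was at 0.95, 0.70, 0.32, -0.19, 0.44 and 0.68 and was not called. Cd83 rose by 0.71 at 3 h (adjusted p = 0.00736) and by 0.75 at 6 h (adjusted p = 0.00104), and was at 0.40 at 12 h, not called. For Cd40 and Cd83 the difference between times was not called. Of the other B7 genes, Cd80, Cd86 and Cd276 were not called at any time over all 6 arrays. Cd80 was at 1.13 and 0.85 at 6 h and at 0.93 and 1.38 at 12 h on series 13, against -0.10 to 0.31 and 0.18 to 0.29 on the other slides.

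Cd7 was low early and back near 0 late. It was at -1.15, -1.11, -0.92, -0.88, -0.85 and -0.77 at 3 h and from -1.41 to -0.70 at 6 h, below 0 on all 12 arrays. It fell by 0.95 on the log2 scale at 3 h (SE 0.07, adjusted p = 0.00148, limma) and by 0.94 at 6 h (SE 0.11, adjusted p = 0.00299). At 12 h its values were 0.10, 0.25, -0.19, -0.31, -0.14 and -0.15, without overlap with either earlier time. The F test over the 3 times, which called 4.09% of all probes, called 5 of the 67 genes: Cd7, Cd72, Cd9, Cd40lg and Cd70.

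Cd72, a B cell inhibitory receptor, and Cd9, a tetraspanin, were highest at 12 h. Cd72 averaged 0.33 at 3 h, rose by 0.55 at 6 h (SE 0.06, adjusted p = 0.00166, limma) and by 1.27 at 12 h (SE 0.08, adjusted p = 0.00306), with 0.79 to 1.60 at 12 h against 0.41 to 0.69 at 6 h. From 3 h to 12 h it gained 0.94 (SE 0.13, adjusted p = 0.00066). Cd9 was between -0.67 and 0.46 at 3 h and 6 h and at 1.02, 1.12, 0.72, 0.65, 0.58 and 0.64 at 12 h, a gain of 1.01 from 3 h (SE 0.17, adjusted p = 0.00334). The 12 h rise of Cd9 itself (0.79, adjusted p = 0.0165) was called in 2 of the 6 fits that left out 1 array.

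Cd40lg and Cd70, ligands of activated T cells, went down late. Cd40lg was at 0.13 to 1.06 at 3 h, at -0.25 to 0.46 at 6 h and at -0.01, -1.71, -0.84, -0.51, -0.87 and -0.92 at 12 h. It fell by 0.81 on the log2 scale at 12 h (SE 0.15, adjusted p = 0.0461, limma), a call that held in 2 of the 6 fits that left out 1 array and was lost without the dye term (adjusted p = 0.0601). The change from 3 h to 12 h was -1.30 (SE 0.19, adjusted p = 0.000909). Cd70 was at 0.10 and -0.16 on both series 13 slides at 12 h and from -1.52 to -0.92 on slides 13 to 16. Over all 6 arrays its 12 h ratio was -0.85, which was not called, and the change from 3 h was -0.95 (SE 0.26, adjusted p = 0.0418). Its receptor gene Cd27 rose by 0.40 at 6 h (adjusted p = 0.0453), a call that held in 1 of the 6 fits that left out 1 array.

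The 12 h arrays fell into sets by slide. Slides 7 and 8 of series 13 differed from slides 13 to 16, which carry no series number, as for Cd14, the lipopolysaccharide coreceptor of myeloid cells. Cd14 was at 2.42 and 2.55 on the former and at 0.17, 0.14, 0.91 and 0.69 on the latter. Its mean of 1.15 was not called. Slides 13 to 16 alone, a subset chosen after the data were seen, called 31 of the 67 genes, at a background of 24.7% of all probes. In this subset 16 were higher and 15 lower. Cd274 (1.39), Cd200 (1.30), Cd72 (1.19), Cd9 (0.65), Cd83 (0.51) and Cd14 (0.48) were among the higher ones. The lower ones included Cd70 (-1.27), Cd40lg (-0.79), Cd209a (-0.79), Cd79a (-0.47), Cd68 (-0.46), Cd4 (-0.35) and Cd8b1 (-0.32). On the same slides 3 of 5 dendritic markers were lower and 1 higher (median -1.01), 5 of 9 macrophage and granulocyte markers lower and 1 higher (median -0.24), and 5 of 7 genes of the double-coreceptor stage lower (median -0.36). Of the other lists there, 1 of 9 B cell markers was lower, 3 of 7 mature single-coreceptor genes higher, 3 of 8 endothelium and fibroblast markers lower, 2 of 7 thymic epithelium markers lower and 1 higher, and the 1 erythroid marker lower (-1.95). The part of these cells in the members' values was not tested. The titles give slides 5 and 6 of series 13 to both 3 h and 6 h, and slides 7 and 8 to both 3 h and 12 h.

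**Figure D5:**
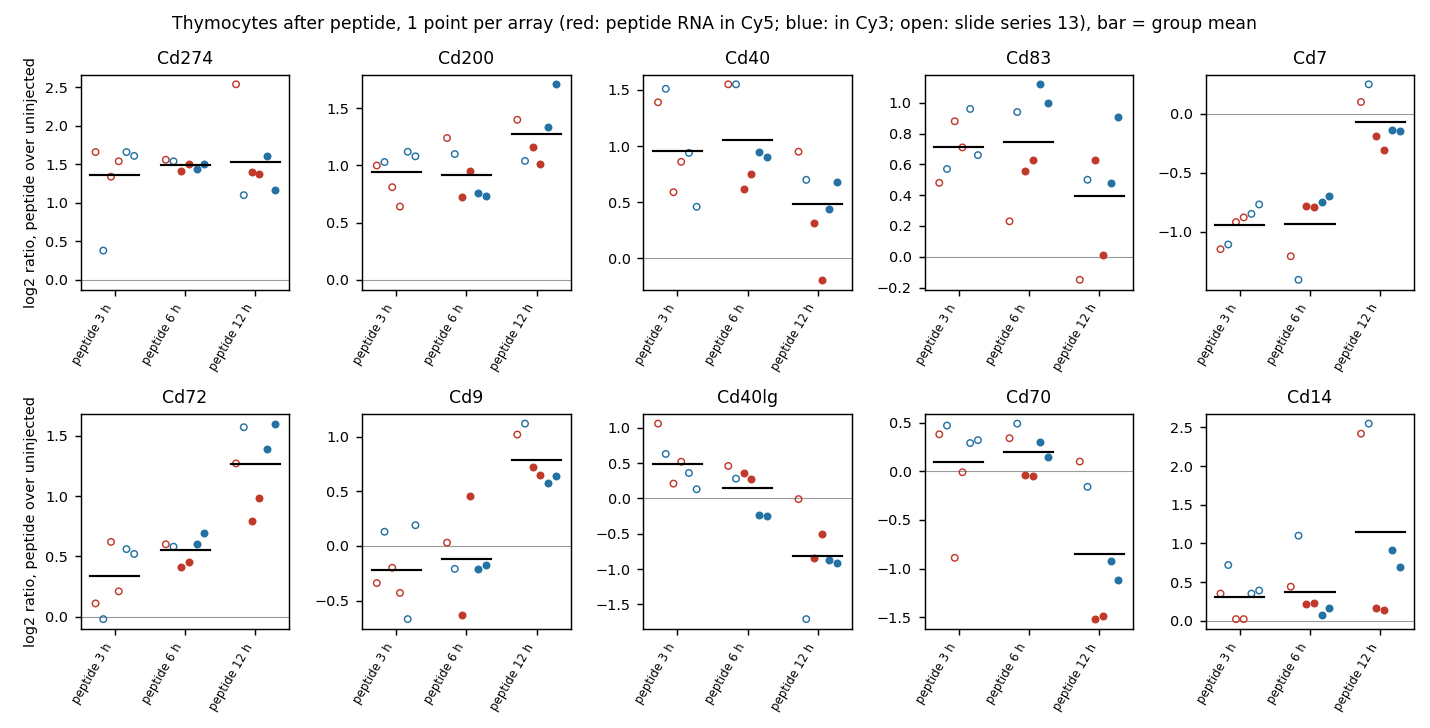
Log2 ratio of peptide-injected over uninjected DO11.10 thymocytes (vertical axis) for 10 genes at 3 h, 6 h and 12 h (horizontal axis), 1 point per array, red with the peptide RNA in Cy5 and blue in Cy3, open for slide series 13 and filled for slides without a series number, with means as bars. Cd274 and Cd200 are above 0 on all arrays, Cd7 is near 0 only at 12 h, and Cd70 and Cd14 split between slide sets at 12 h.

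At 6 h the remaining calls were small: Cd68 (-0.39), Cd46 (-0.32), Cd79a (-0.31) and Cd164 (-0.29), of which Cd164 was called at 12 h as well (-0.43). Of the 6 fits that left out 1 array, the 6 h call held in 6 for Cd68, in 2 each for Cd46 and Cd79a and in 1 for Cd164, whose 12 h call also held in 1. All 4 of these 6 h calls were lost with all groups in one fit. Cd2 rose at 3 h by 0.38 (adjusted p = 0.0495, limma), a call held in 0 of the 6 fits that left out 1 array. Markers of other thymic cells moved beside these genes. Of 7 thymic epithelium markers 3 fell at 3 h, 4 at 6 h and 2 at 12 h, and none rose, with Psmb11 at -1.16, -1.73 and -1.97. Of 9 macrophage and granulocyte markers 2, 3 and 1 fell. Of 5 dendritic and 9 B cell markers none was called at any of the 3 times over all 6 arrays. Of 7 genes of the double-coreceptor stage, 1 fell at 3 h, 2 at 6 h and none at 12 h over all 6 arrays. Of 7 mature single-coreceptor genes 2 fell at 3 h, and at 6 h 1 rose and 3 fell. Of 8 endothelium and fibroblast markers 2 fell at 6 h, and the 1 measured erythroid marker fell at 3 h (-1.32) and 6 h (-0.81). Their part in the members' values was not tested.

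CD antigens whose genes carry another kind of symbol were described from a list with 43 measured genes, to be read against the share of all probes called in each comparison. In DO11.10 over mhc -/- thymocytes 20 were higher and 8 lower (36.3% of all probes called), with Sema4d (3.36) and Cxcr4 (2.58) highest. With MEF2D-VP16 4 were higher and 9 lower (12.6% of all probes), with Fcgr2b at -2.25, and with Nur77 2 were higher and 6 lower (6.91% of all probes), with Fcgr3 at -1.19. PMA and ionomycin raised 4 and lowered 2, a share close to the 12.5% of all probes, among them Il2rb (1.80) and Cxcr4 (-1.79). HDAC7-VP16 raised 3 and lowered none (2.72% of all probes), and HDAC7 DP raised 1, Nt5e (1.41), and lowered none (1.65% of all probes). Peptide raised 2 and lowered none at 3 h, raised 6 and lowered 4 at 6 h, and raised 6 and lowered 3 at 12 h, against 2.71%, 4.57% and 3.38% of all probes. Tnfrsf4, the OX40 gene, was the highest of the list at each time (2.47, 3.00 and 3.08).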

How the data were processed

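Each of the 74 arrays compared a pair of RNAs labelled with Cy3 and Cy5 through aminoallyl coupling, per the labels' protocols. The deposited values are log ratios of the channels, taken here as log2, and how the authors normalised them is not given in the sources used here. Column medians lay between -0.021 and 0.023. No spot intensities or flags were used, so dim and saturated spots could not be told from others, and the number of arrays limits the precision.

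Dyes came from the array titles, because both label fields of an array read Cy3, and the ratios were taken as the named RNA over its partner. Of 16463 probes, 14551 carried 1 symbol in the platform annotation, 6 several and 1906 none. Each array was centred on its median. Each comparison had its own limma fit (version 3.58.1, R 4.3.3) with a term for dye orientation, and p-values were adjusted by Benjamini-Hochberg over all probes. The script was tested on simulated data. The members and gene lists were chosen with earlier results of these data known. Named were Cd4, Cd8a and Cd8b1, up to 8 called members in each direction of a comparison, members that bind each other, and at most 2 called genes of a list. Genes named beyond that, such as Cd14 and those of the 12 h subset, were chosen after their values were seen. Alternatives covered the dye term, scaling, the controls, the array signs, the slide sets, the probe of a gene and each array left out. Promoters are RefSeq's for GRCm38.p6.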

Additional observations from a re-analysis of the deposited data

Results flagged for a closer look

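Across 116 sets of 4 to 10 values, 6 held an array that stood apart from the rest of its group by Dixon's test at the 95% level, about as many as the 1 in 20 that chance gives. In empty virus B, Cd27 was at -0.70 on replicate 3 against -0.54 to -0.52 on the others, and Cd7 was at -1.0 on replicate 2 against 0.05 to 0.11. In DO11.10 over mhc -/- thymocytes, Cd163 was at -0.54 on replicate 5 against -0.35 to -0.24. At 3 h after peptide, Cd274 was at 0.38 on replicate 2 against 1.34 to 1.66, and Cd2 at 0.07 on replicate 3 against 0.38 to 0.52. At 12 h, Cd274 was at 2.54 on replicate 1 against 1.10 to 1.61.

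The response to peptide differed between times for 5 genes by the limma F test. From 3 h to 12 h the log2 ratio changed by 1.01 for Cd9, by 0.87 for Cd7, by 0.94 for Cd72, by -1.30 for Cd40lg and by -0.95 for Cd70. All 3 h arrays came from slide series 13, whereas 4 of the 6 arrays at 12 h did not, and the part of the slide sets in these differences was not tested. On the series 13 slides at 12 h Cd70 averaged -0.03, and on slides 13 to 16 it averaged -1.27.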

How the results depend on the processing

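Counts of called members, by limma, changed with several settings. The share of all probes called is given here for few of these settings. Without it a count, here or with slide series as a block, cannot be set against a background. Without the dye term the counts were 0 for empty virus B, 2 for HDAC7-VP16, 6 for MEF2D-VP16 and 5 for Nur77. With all groups in one fit they were 1 for empty virus A, 4 for empty virus B, 4 for HDAC7 DP, 11 at 3 h and 22 at 12 h. With the signs of empty virus A replicates 3 and 9 turned they were 0 for empty virus A and 2 for HDAC7-VP16. Series 14 alone gave 1 for empty virus A and 0 for HDAC7-VP16, and series 15 alone 0 for empty virus A and 0 for HDAC7 DP. Without slides 11 and 12 of series 14, HDAC7-VP16 had 7. Against untreated cells, PMA and ionomycin had 12 and HDAC7 DP 12, at 16.1% and 19.6% of all probes. Averaging slides of one number left 1 for HDAC7 DP, and averaging slide pairs 0, in a fit that called 0 of all probes. Slides 13 to 16 alone gave 31 at 12 h, at 24.7% of all probes. Leaving out 1 array gave 3 to 7 for empty virus B, 3 to 5 at 3 h, 7 to 13 at 6 h, 2 to 14 at 12 h and 7 to 11 for Nur77 against MEF2D-VP16. Cd36 with HDAC7-VP16 changed sign, to 0.02, against untreated cells. Of the single-gene results under the alternatives, 1147 stayed on their side of the threshold, 199 lost their call, 12 gained one and 1 reversed. A change of sign counted as a reversal only where at least 1 of the compared fits called the gene. Uncalled results among the 1147 could therefore change sign, as Cd8b1 in empty virus A did, from 0.01 to -0.11 on series 14 alone. The causes were not tested, apart from the fewer arrays in the subsets. The alternatives on slide subsets, slide pairs and the direct Nur77 comparison were chosen after seeing the data.

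With slide series as a block, the counts were 4 for empty virus A, 4 for HDAC7-VP16, 8 for PMA and ionomycin and 3 for HDAC7 DP. No paired analysis was possible because the labels give no replicate numbers: replicate numbers here follow the order of deposition, and the series 13 slide numbers that titles give to more than 1 time cover only some arrays.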
